A study of Hirudo medicinalis with 12 samples.

Results

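Ganglion 10, from the middle of the body, was compared with ganglion 2, close to the head, in the nerve cord of the medicinal leech Hirudo medicinalis. The members were chosen by label: the 6 libraries of ganglion 10 (libraries 2, 5, 8, 10, 11 and 12) and the 3 libraries of ganglion 2 (libraries 1, 4 and 7), 9 of the 12 libraries in the series. All leeches were adults of 1 farm-bred colony that lived in shared tanks at 16 °C, no treatment is named for any library, and the remaining 3 libraries came from ganglion 19 near the tail. The series describes 3 leeches without tying a library to one, so if that covers all 12 libraries, some libraries of ganglion 10 share a leech and the p-values, which measure only the spread between libraries, may be too small.

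The leech nerve cord is a chain of segmental ganglia, each a small cluster of neurons and glia packed in a fixed layout. Ganglia of the body segments share most identified neurons, among them the sensory cells for touch, pressure and pain, the Retzius cells that release serotonin, and the motor neurons of the body wall. Some ganglia carry extra or modified cells for their own segment, the sex segments being the best known case. The comparison therefore sets 2 positions of a largely repeated structure side by side.

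Transcripts were counted on assembled sequences, called contigs, and the counts were summed here per component, the assembler's group of related contigs. The 76845 contigs fell into 58593 components, of which 48935 held a single contig. The identifiers carry no gene name, so components are named by identifier, what their products do is not described, and markers of neurons, glia, muscle or blood were not tested. Levels are given in CPM, the count relative to the library's total after TMM scaling, which sets aside components with extreme ratios.

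Library 1 of ganglion 2 stood apart from the other 8 libraries compared here. It held 12679031 counts, within the range of 6436783 to 13429074 for the 9 libraries, but its 10 most abundant components took 57.6% of them, against 21.4% to 42.7% in the other 8. A single component, comp9_c0, took 19.2%. Its TMM factor was 0.404, against 0.95 to 1.37 in the others. A factor this low raises every scaled CPM of library 1, so its gaps to other libraries depend on the factor. Of 26511 components tested, 43.3% had no count in library 1, against 11.2% in library 4 and 9.91% in library 7. Each result below is therefore given with library 1 and without it. Outside the comparison, library 3 of ganglion 19 also had a large share of its counts in 10 components, 61.1%, and counts in 22243 components, against 20306 in library 1.

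No component passed the test of ganglion 10 against ganglion 2. edgeR's quasi-likelihood test with Benjamini-Hochberg adjustment called 0 of 26511 components (0%) in either direction with all 9 libraries, where the smallest adjusted p was 0.182. It also called 0 of the same components (0%) without library 1, where the smallest adjusted p was 0.188. At an unadjusted p under 0.05 there were 3071 components with library 1, 1698 higher (6.4%) and 1373 lower (5.18%) in ganglion 10. Without library 1 there were 1884, 1523 higher (5.74%) and 361 lower (1.36%). The filter asks for sufficient counts in 3 libraries. A component found in ganglion 2 alone must have them in library 1, while one in ganglion 10 alone needs 3 of 6 libraries. Higher and lower counts, here and below, are thus not alike in what could be tested. Under 1 CPM, 313 were higher and 1 lower with all libraries. limma-voom with library weights called 0 with all libraries (0%) and without library 1 it called 0 higher and 1 lower (0.00377%). In such whole-ganglion samples, fewer cells of a type and less RNA per cell cannot be told apart.

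DESeq2 made calls where edgeR made none. With all 9 libraries it called 490 components higher in ganglion 10 (2.07% of 23713 with an adjusted p) and 151 lower (0.637%). Without library 1 it called 242 higher (1.13% of 21500) and 13 lower (0.0605%). The components called both times numbered 187 higher and 2 lower. The 187 were 38.2% of the higher list with library 1 and 77.3% of the list without it, and the 2 were 1.32% and 15.4% of the lower lists. The 2 lower components were comp25026_c0 and comp29418_c0. In TMM-scaled CPM, comp25026_c0 had 49.3, 54.4 and 42.8 in libraries 1, 4 and 7, above all of ganglion 10 at 9.38 to 16.8. Its log2 fold change was -1.83 with all libraries (edgeR adjusted p = 0.282) and -1.79 without library 1 (edgeR adjusted p = 0.703). Tested components without a DESeq2 adjusted p could not be called. With all libraries these included comp10724_c0, comp26639_c0, comp8122_c0 and comp22465_c0, where library 1 held over 90% of the ganglion 2 CPM. They also included the abundant comp9_c0, comp4_c0, comp6_c0 and comp11_c0. The lower list with library 1 therefore leaves out some components that rest on library 1.

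The calls at unadjusted p leaned on library 1 in 1 direction far more than in the other. The filter, which asks more of components confined to ganglion 2, also enters this contrast. Of the 1373 components lower in ganglion 10 with all libraries, 95 (6.92%) kept a p under 0.05 and their direction without library 1, and 597 changed sign. In 648 of the 1373 (47.2%) library 1 held over 90% of the summed ganglion 2 CPM, against 4.9% of all components tested. Of the 1698 higher components, 1152 (67.8%) kept a p under 0.05 and their direction, and 0 changed sign. The median log2 fold change of the lower components moved from -2.98 to -0.18 when library 1 was left out, and that of the higher ones from 5.04 to 4.97. Library 1 had no count in 1319 of the higher components (77.7%), against 43.3% of all tested. Library 1 was thus the dominant ganglion 2 library in 648 of the lower components and empty in most of the higher ones.

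**Figure D1:**
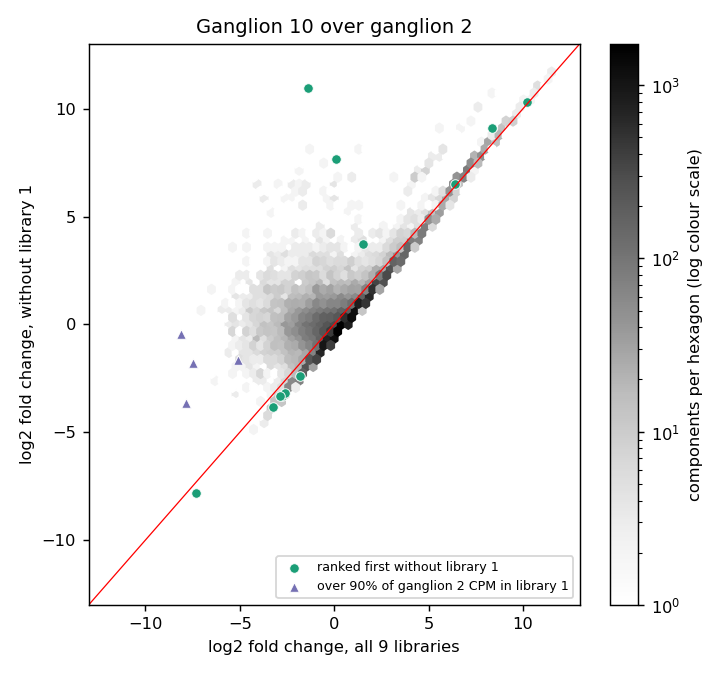
Log2 fold change of ganglion 10 over ganglion 2 in 26511 components, with all 9 libraries (x axis) and without library 1 (y axis); grey hexagons count components on a log colour scale and the red line marks equal values. Triangles are the 4 named components with over 90% of the ganglion 2 CPM in library 1, which lie far above the line, and circles are the 12 components ranked first without library 1.

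Among components lower in ganglion 10, the 4 with the smallest p that held over 90% of their ganglion 2 CPM in library 1 are given as examples, and the way they were chosen fixes that they shift when library 1 is left out. In 3 of them, comp10724_c0, comp22465_c0 and comp8122_c0, the 2 contigs had identical values, so the printed CPM are doubled. comp10724_c0 had 614 CPM in library 1, 1.30 CPM in library 4 and 0.753 CPM in library 7, and between 0.208 and 1.15 CPM in ganglion 10 (median 0.774). Its log2 fold change was -8.11 with all libraries (SE 1.47, edgeR adjusted p = 0.27) and -0.43 without library 1 (SE 1.20, adjusted p = 0.978). Outside library 1 the 2 ganglia overlapped for this component. comp22465_c0 had 247 CPM in library 1, 1.30 and 1.96 CPM in libraries 4 and 7, and at most 1.28 CPM in ganglion 10, and its log2 fold change moved from -7.46 to -1.79. comp8122_c0 had 531, 15.6 and 19.6 CPM in libraries 1, 4 and 7 against 2.03 to 11.7 CPM in ganglion 10, and moved from -5.11 to -1.66. comp26639_c0 had 391, 4.82 and 10.9 CPM against 0 to 1.54 CPM, and moved from -7.83 to -3.65. In the last 3, libraries 4 and 7 also lay above every ganglion 10 library, and the edgeR adjusted p without library 1 was 0.851, 0.703 and 0.703.

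The components ranked first without library 1 were taken as the 6 with the smallest p in each direction among those whose ganglion 10 libraries did not overlap libraries 4 and 7. All tested components without such overlap numbered 1454 above (5.48%) and 863 below (3.26%). With library 1 included, 976 lay above (3.68%) and 172 below (0.649%). Their separation from libraries 4 and 7 is part of how the 12 were chosen, so only the level in library 1 is a further observation. Of the 6 higher in ganglion 10, 3 also lay above library 1 in TMM-scaled CPM. Of the 6 lower, 0 lay below library 1. Among all tested components without overlap, 67.1% of those above and 19.9% of those below kept their place with library 1 included. DESeq2 called 6 of the 6 higher and 5 of the 6 lower components without library 1, and comp4390_c0 had no DESeq2 adjusted p there. These calls, here and below, use the libraries that chose the 12, so they are no separate support.

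**Figure D2:**
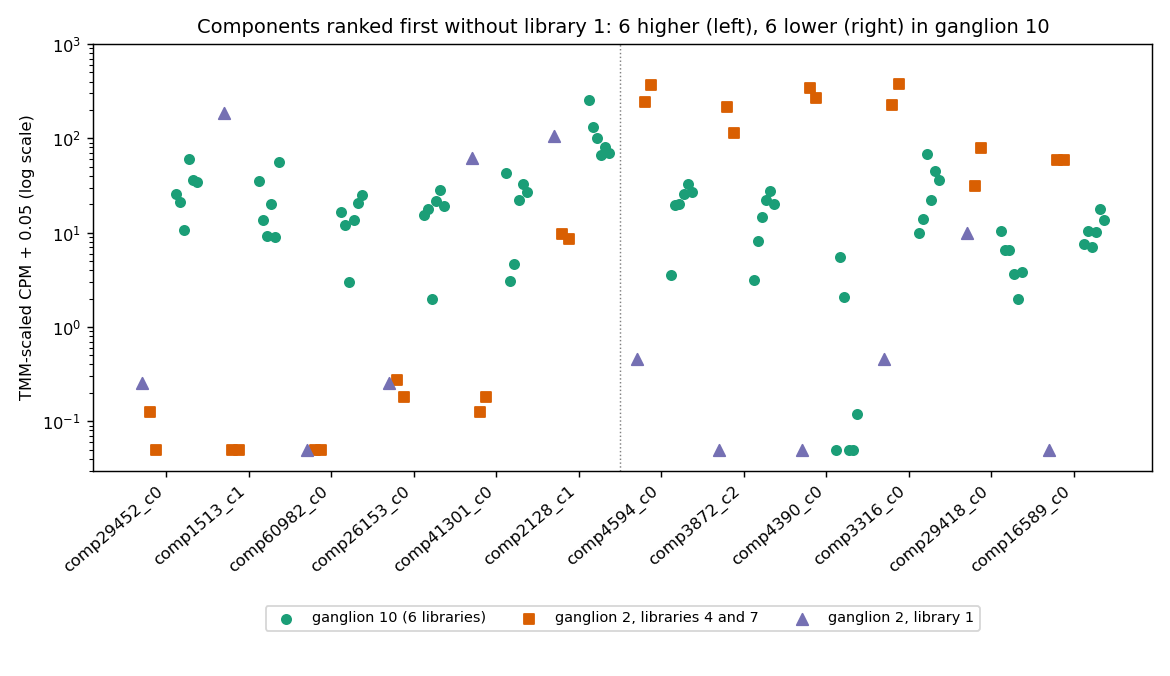
TMM-scaled CPM plus 0.05 (log axis) of the 12 components ranked first without library 1, 6 higher and 6 lower in ganglion 10, with 1 point per library. Library 1 (triangles) sits with libraries 4 and 7 (squares) for comp29452_c0, comp60982_c0 and comp26153_c0, and sits at or below the ganglion 10 libraries (circles), or within them, for all 6 lower components.

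The 3 higher components that also held against library 1 were close to silent in ganglion 2. With so few counts there, they passed the filter through ganglion 10 alone. comp29452_c0, a component of 5 contigs, had 0.206 CPM in library 1, 0 in library 4 and 0.0753 CPM in library 7, from 1, 0 and 1 counts. In ganglion 10 it ranged from 10.5 to 60.3 CPM with a median of 29.9. Every ganglion 10 library held at least 115 counts, so the groups lay far apart. Mean levels were 31.2 ± 17 CPM in ganglion 10 (SD, n = 6) and 0.0936 ± 0.104 CPM in ganglion 2 (SD, n = 3). Its log2 fold change was 8.36 with all libraries (SE 1.27, edgeR adjusted p = 0.182) and 9.13 without library 1 (SE 1.22, adjusted p = 0.188), the smallest adjusted p in both fits. Pooled counts gave a 412-fold difference with all libraries (exact 95% interval 114 to 3401, counting error only). DESeq2 called it with and without library 1 (adjusted p = 1.11e-07 and 7.2e-06). All 5 of its contigs pointed the same way. In ganglion 19 it had 187, 82 and 1 counts.

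comp60982_c0, a single contig, had no count in any ganglion 2 library and 2.93 to 25.3 CPM in ganglion 10 (median 15). Set against 3 counts over the group, that is at least 133-fold higher in ganglion 10 with all libraries, and at least 108-fold higher without library 1. The edgeR adjusted p was 0.27 with library 1 and 0.32 without it, while DESeq2 called it both times (adjusted p = 3.88e-06 and 2.79e-05). comp26153_c0 had 0.206, 0.13 and 0.226 CPM in libraries 1, 4 and 7, from 1, 1 and 3 counts, and 1.92 to 28 CPM in ganglion 10 (median 18.4). The pooled fold was 87.7 (interval 37.5 to 271), with an edgeR adjusted p of 0.27 with all libraries and 0.608 without library 1. DESeq2 called it both times as well (adjusted p = 3.18e-05 and 2.79e-05). Both stood apart from every ganglion 2 library. In ganglion 19 comp60982_c0 held 13, 6 and 2 counts and comp26153_c0 held 59, 515 and 131.

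The other 3 higher components met an opposite level in library 1. comp1513_c1 had 0 counts in libraries 4 and 7 and 8.94 to 56.1 CPM in ganglion 10 (median 16.8), at least 180-fold higher without library 1. Library 1 held 185 CPM, above all 6 ganglion 10 libraries, and the log2 fold change with it was -1.37 (SE 1.45, edgeR adjusted p = 0.863). comp41301_c0 had 0.13 and 0.0753 CPM in libraries 4 and 7, 61.2 CPM in library 1 and 2.99 to 42.8 CPM in ganglion 10 (median 24.4), and the log2 fold change of 7.68 without library 1 became 0.11 with it. comp2128_c1 had 8.59 and 9.56 CPM in libraries 4 and 7, 106 CPM in library 1 and 66.8 to 254 CPM in ganglion 10 (median 90.4), with log2 fold changes of 3.74 (SE 0.75, adjusted p = 0.703) and 1.51 (SE 0.86, adjusted p = 0.558). In TMM-scaled CPM library 1 thus lay above every ganglion 10 library for the first and second of these and within their range for comp2128_c1. The placings of comp41301_c0 and comp2128_c1 depend on the scaling. For comp41301_c0 library 1 held 298 counts of 12679031 in all, and library 2 held 306 of 7355592. For comp2128_c1 library 1 held 515 counts, and library 12 held 997 of 12945477.

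The 6 components lower in ganglion 10 were far more abundant in libraries 4 and 7 than in library 1. comp4594_c0, a single contig, had 369 CPM in library 4 and 241 CPM in library 7 but 0.411 CPM in library 1, from 2 counts among 12679031. In ganglion 10 it ranged from 3.5 to 32.9 CPM (median 22.8). Without library 1 the means were 305 ± 90.3 CPM in ganglion 2 (SD, n = 2) and 21.4 ± 10.1 CPM in ganglion 10 (SD, n = 6). On the log2 scale ganglion 10 stood at -3.82 relative to ganglion 2 (SE 0.58), with an edgeR adjusted p of 0.32. It passed with library 2 also left out (adjusted p = 0.0374), and over the alternatives without library 1 its adjusted p ran from 0.000121 to 1. Library 1 lay below every ganglion 10 library, on the opposite side from libraries 4 and 7.

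comp4390_c0 had the widest ratio of the 6, with 269 and 343 CPM in libraries 4 and 7 and 0 in library 1. In ganglion 10 it had no count in libraries 2, 10 and 11, 1 count in library 12, and 2.01 and 5.48 CPM in libraries 8 and 5. Pooled counts without library 1 were 250-fold higher in ganglion 2 (interval 200 to 316), with an edgeR adjusted p of 0.608. It was the 1 component called by limma-voom without library 1 (adjusted p = 0.00573, range over the alternatives 1.86e-05 to 1). comp3316_c0 had 375 and 228 CPM in libraries 4 and 7, 0.411 CPM in library 1 and 9.79 to 68.9 CPM in ganglion 10 (median 29.4). comp3872_c2, whose 2 contigs had identical values so that its sums are doubled, had 113 and 213 CPM, 0 in library 1, and 3.08 to 27.8 CPM in ganglion 10 (median 17.4). comp16589_c0 had 59 and 58.2 CPM, 0 in library 1, and 6.96 to 17.6 CPM in ganglion 10 (median 10.2). In these 3 as in comp4594_c0, library 1 held 0 to 2 counts where every ganglion 10 library held at least 22.

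comp29418_c0 was the 1 lower component of the 6 with more than a trace in library 1. It had 9.86, 79 and 31.3 CPM in libraries 1, 4 and 7 and 1.91 to 10.4 CPM in ganglion 10 (median 5.07). In TMM-scaled CPM library 1 overlapped ganglion 10 only through library 2, at 10.4 CPM. Library 1 held 48 counts of 12679031 in all and library 12 held 54 of 12945477, so this depends on the scaling. Its log2 fold change was -2.88 with all libraries (SE 0.80, edgeR adjusted p = 0.282) and -3.31 without library 1 (SE 0.63, adjusted p = 0.608). DESeq2 called it both times (adjusted p = 0.0268 and 0.00512). Its ganglion 19 counts were 0, 83 and 235.

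How close the 2 ganglia were depended on abundance, and without library 1 the distance between them was about that between libraries of 1 ganglion. Components were put in classes by mean CPM over the 9 libraries: 2291 under 1 CPM, 14860 from 1 to 10, 8223 from 10 to 100, 1084 from 100 to 1000, and 53 at 1000 or more. The last 53 components held 42.7% of the summed CPM in ganglion 10 and 55.4% in ganglion 2, where library 1 enters. The same classes were kept without library 1, so its levels still enter the class of a component there. For each pair of libraries the median absolute log2 difference was taken over the components of a class. Pairs share libraries, so these values describe the libraries and carry no test.

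Without library 1, the 12 pairs of a ganglion 10 with a ganglion 2 library had a median distance of 1.53 log2 units under 1 CPM, 1.46 from 1 to 10, 0.83 from 10 to 100, 0.75 from 100 to 1000 and 0.80 at 1000 or more. The 15 pairs within ganglion 10 had 1.44, 1.32, 0.78, 0.88 and 0.99 in the same classes. Ganglion 10 mixes libraries of whole-number and of expected counts, which ganglion 2 does not. Libraries 4 and 7, the only pair within ganglion 2 without library 1, had 1.52, 1.57, 0.89, 0.79 and 0.56. The ranges of the 12 pairs and the 15 pairs overlapped in every class, and from 100 CPM upward the median between ganglia was below the median within ganglion 10. Libraries 7 and 8, of different ganglia, were closer to each other over all tested components (0.80, 57.9% of components within 2-fold) than 13 of the 15 pairs within ganglion 10. From 100 to 1000 CPM, 92.5% of components lay within 2-fold between libraries 7 and 8.

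Library 1 was as far from its own ganglion as from the other. Over all tested components its distance was 2.59 to 2.68 log2 units from libraries 4 and 7 and 2.59 to 2.86 from the 6 ganglion 10 libraries. Between 18.8% and 25% of components lay within 2-fold in any of these 8 pairs. The next most distant pair of the 9 libraries, 2 and 7, was at 1.51.

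**Figure D3:**
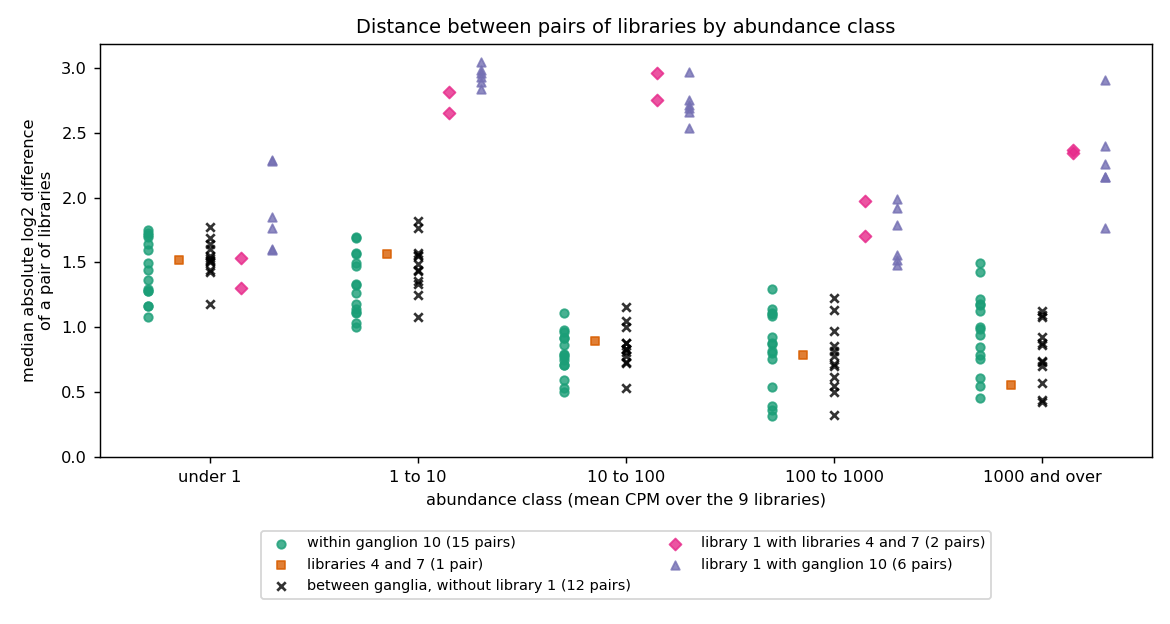
Median absolute log2 difference (y axis) of each pair of the 9 libraries within 5 abundance classes (x axis), 1 point per pair. Pairs between ganglia without library 1 (crosses) cover about the range of pairs within ganglion 10 (circles) in every class, and pairs with library 1 (diamonds and triangles) lie above all of them from 1 CPM upward.

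Ganglion means were also closer from 10 CPM upward than below when library 1 was left out. In that case 56.6% of components under 1 CPM had mean log2 levels within 2-fold between the ganglia, 54.7% from 1 to 10 CPM, 75.1% from 10 to 100, 83.9% from 100 to 1000 and 83% at 1000 or more. With library 1 the shares were 56.7%, 45.4%, 56.3%, 78% and 66%. Below 10 CPM the typical component had few counts to measure it, with a median of 4 per library under 1 CPM and 18 from 1 to 10 CPM, against 198 from 10 to 100 CPM. The balance also turned with abundance. Without library 1, 57.7% of components from 1 to 10 CPM were higher in ganglion 10, against 33.9% from 100 to 1000 CPM, where the median log2 difference was -0.25. The turn was uneven between libraries. In library 5 against 4 these shares were 54.8% and 27.4%, and in library 8 against 7 they were 55.6% and 45.7%. At 1000 CPM or more they were 32.1% for library 5 against 4 and 58.5% for library 8 against 7.

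The share of variation between libraries that lay between the 2 ganglia was 17.1% over all tested components, measured as a distance-based R2. The exact permutation p was 0.0952 with 84 regroupings, where the mean over all regroupings was 12.5%. By class it was 17% under 1 CPM (exact p = 0.0357), 18.1% from 1 to 10 (exact p = 0.0476), 16% from 10 to 100 (exact p = 0.238), 9.57% from 100 to 1000 (exact p = 0.595) and 8.3% at 1000 or more (exact p = 0.667). After adjustment over 14 tests none passed, and the smallest adjusted p was 0.167. Without library 1 the shares ran from 10.5% to 16.6%, where the mean over all 28 regroupings was 14.3%. The exact permutation p ran from 0.179 to 0.679 in this design, which cannot go below 0.0357. That p missed the threshold does not show that the ganglia were alike.

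Of the 5 most abundant components none passed the edgeR test, and the fold changes of 4 rested on library 1. comp9_c0 had 500818 CPM in library 1, against 38694 and 56365 CPM in libraries 4 and 7 and 14997 to 94407 CPM in ganglion 10, and its log2 fold change was -1.69 with all libraries (SE 0.86, edgeR adjusted p = 0.482) and 0.42 without library 1. comp4_c0 and comp6_c0 changed sign in the same way, from -1.85 to 0.80 and from -1.58 to 0.25. comp11_c0 moved from -1.72 to -0.11. comp12_c0 was the exception among the top 5, at 54077, 60237 and 58137 CPM in libraries 1, 4 and 7 and 17011 to 78997 CPM in ganglion 10, with log2 fold changes of -0.41 and -0.43. In TMM-scaled CPM library 1 thus lay far above the rest for 4 of these 5 components and within the range of ganglion 10 for comp12_c0. As a share of all counts comp9_c0 took 19.2% in library 1 and 11.1% in library 5, so the size of the gap depends on the scaling. The 2 contigs of comp6_c0 had identical values in every library, so its summed counts are doubled.

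Each ganglion 2 library held fewer components with at least 1 count than any ganglion 10 library. With every library thinned to 6436783 counts, 18161, 34151 and 32398 components had at least 1 count in libraries 1, 4 and 7. In ganglion 10 the number ran from 36034 to 41511. The means were 28237 ± 8770 (SD, n = 3) and 38363 ± 2080 (SD, n = 6). The two-sided exact permutation p was 0.0119, the smallest that 84 regroupings give. Adjusted over the 14 tests of its family it was 0.167 and missed the threshold. Without library 1 the ganglion 2 mean was 33275 ± 1240 (SD, n = 2) and the difference 5089 components (exact permutation p = 0.0357, the smallest of 28 regroupings, adjusted p = 0.167). The separation was lost when at least 10 counts were asked for: library 4 then held 21343 components, above libraries 8, 11 and 12 of ganglion 10 with 19769, 20617 and 20868, and the difference of means was 5387 with library 1 (exact permutation p = 0.0595) and 2407 without it (exact permutation p = 0.25).

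**Figure D4:**
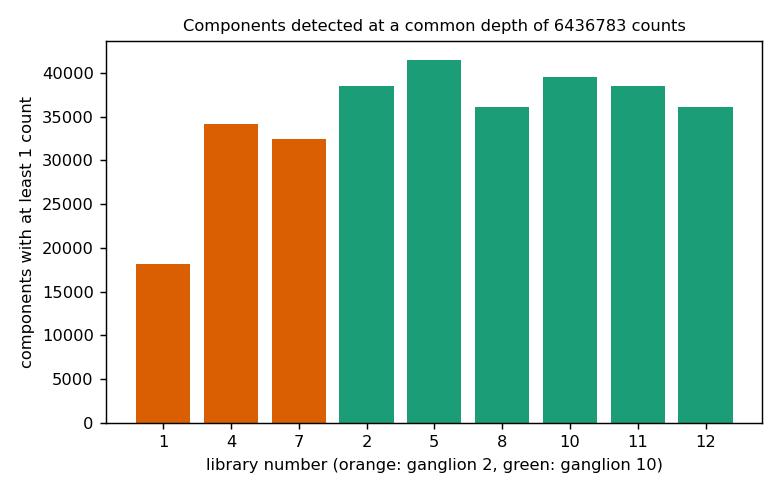
Number of components with at least 1 count (y axis, from 0) in each of the 9 libraries after thinning to 6436783 counts. The ganglion 2 libraries (orange) stand at 18161, 34151 and 32398 and the 6 ganglion 10 libraries (green) between 36034 and 41511.

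Components with counts in 1 ganglion alone were found on both sides, but among tested components on the ganglion 10 side only. Among tested components, 157 (0.592%) had counts in all 6 ganglion 10 libraries and none in ganglion 2, and in 12 of these every ganglion 10 library held at least 10 counts. Leaving library 1 aside, 223 had counts in all 6 and none in libraries 4 and 7, and 66 of these had counts in library 1. The reverse pattern, counts in every ganglion 2 library and none in ganglion 10, was found in 0 tested components and in 4 of all 58593, or in 46 of all when library 1 is set aside. Over all components the ganglion 10 side numbered 427, and 544 with library 1 set aside. The sides are not alike in what they ask: 6 empty libraries are needed on 1 side and 3 on the other, and the filter keeps a component only with sufficient counts in 3 libraries, so 1 present in libraries 4 and 7 alone could not be tested.

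Libraries 1 and 2, 4 and 5, and 7 and 8 follow each other in number, and each run pairs ganglion 2 with ganglion 10. The labels do not say that a run is a leech, a day or a batch, so directions within runs are descriptions. Ganglion 10 was higher in 62.8% of components and lower in 27.9% in the run of libraries 1 and 2, with 38% of components over 10-fold apart. In the run of libraries 4 and 5 it was higher in 50.9% and lower in 47.4%, with 12.5% over 10-fold apart. In the run of libraries 7 and 8 it was higher in 53.5% and lower in 43.8%, with 5.12% over 10-fold apart. The 3 runs thus differed widely in how far apart their libraries lay.

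Direction in 1 run said little about direction in another. The runs share no library, and across the 26511 components, which are not independent replicates, Pearson's r of the log2 ratios was 0.198 between runs 1 and 2 against 4 and 5, 0.012 between 1 and 2 against 7 and 8, and -0.0014 between 4 and 5 against 7 and 8. Spearman's rho was 0.199, 0.00563 and -0.0126. In the last pair of runs, neither of which holds library 1, 47.3% of components had the same sign and 48.4% opposite signs. From 100 to 1000 CPM r between these runs was -0.17. Libraries 2 and 5, the ganglion 10 members of the only runs with a positive r above 0.1, were also the closest pair that library 2 formed, at 0.97 log2 units. The part of that likeness in r was not tested.

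**Figure D5:**
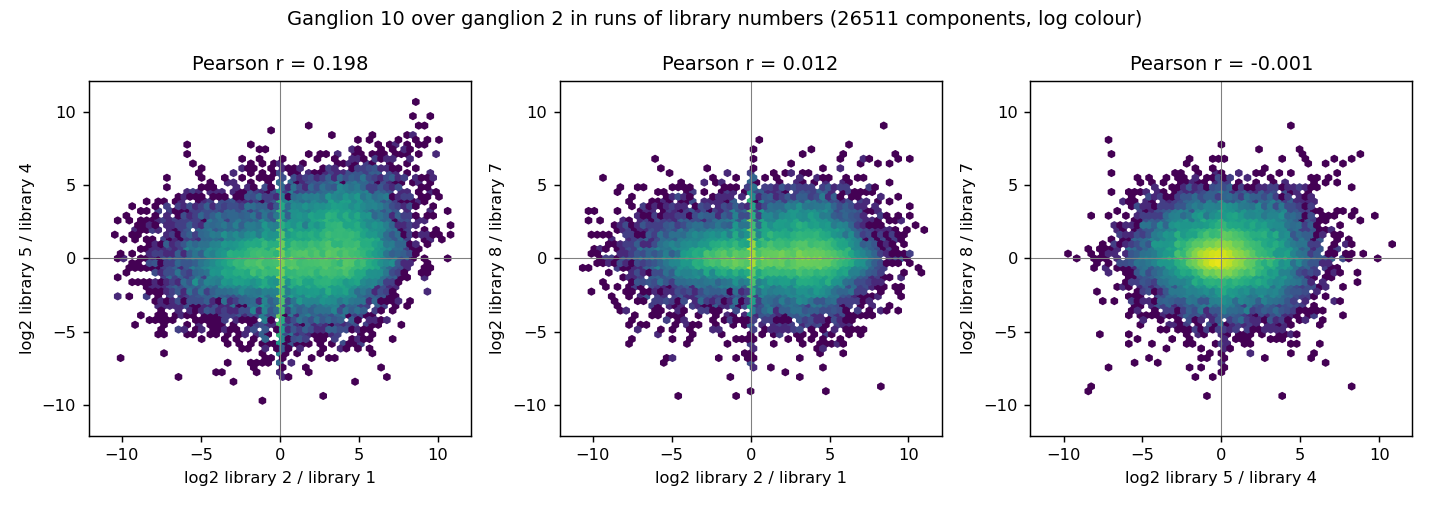
Log2 ratio of the ganglion 10 to the ganglion 2 library of 1 run against that of another, across 26511 components, with hexagons coloured by count on a log scale. The log2 ratios of the run of libraries 1 and 2 lean to positive values (median 1.53) and those of the other runs centre near 0, with Pearson's r of 0.198, 0.012 and -0.0014.

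Ganglion 10 was higher in all 3 runs in 4998 components (18.9%) and lower in all 3 in 1838 (6.93%). The libraries can also be compared within sequencing lanes: lane 4 held library 1 with libraries 5, 10 and 11, lane 8 held library 4 with 2 and 8, and lane 2 held library 7 with 12. Ganglion 10 was higher in all 3 lanes in 5108 components (19.3%) and lower in all 3 in 1471 (5.55%). Both conditions were met by 2594 higher (9.78%) and 700 lower components (2.64%). From 100 to 1000 CPM the balance was the other way, with 15 of 1084 components higher (1.38%) and 81 lower (7.47%). Whether any of these counts exceeds what unrelated runs and lanes would give was not tested. The lanes and runs use the same 3 ganglion 2 libraries, so the second count is no separate evidence.

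Among components of 1 sign in all runs and lanes, the 4 per direction with the widest margin over the runs are described. For the higher ones that choice favours high values in libraries 2, 5 and 8 and low values in ganglion 2. Only libraries 10, 11 and 12 lie outside the margin over the runs, and the lanes bear on them too. The choice fixed library 12 above library 7, and the mean log2 level of libraries 5, 10 and 11 above library 1. comp10126_c0 had 0.206, 0.521 and 0 CPM in libraries 1, 4 and 7, and 412, 110 and 24 CPM in libraries 2, 5 and 8, while libraries 10, 11 and 12 had 3.36, 6.64 and 10.6 CPM. Its log2 ratios in the 3 runs were 9.97, 7.24 and 6.88. comp25839_c0 had no count in ganglion 2, with 135, 63.1 and 22.6 CPM in libraries 2, 5 and 8 and 0.894 to 2.49 CPM in libraries 10 to 12. comp4288_c1 had none in ganglion 2, 105, 102 and 28.1 CPM in libraries 2, 5 and 8, and 0, 0 and 16.3 CPM in libraries 10, 11 and 12. In these 3 components libraries 10, 11 and 12 lay below the lowest of libraries 2, 5 and 8. For comp4288_c1 2 of them were as empty as ganglion 2. Libraries 10, 11 and 12 hold expected counts and the others whole-number counts, so this split and the kind of count cannot be told apart. The edgeR adjusted p ran from 0.271 to 0.281 with all libraries. DESeq2 called all 3 (adjusted p = 3.18e-05 for comp10126_c0, 3.32e-05 for comp25839_c0 and 0.0375 for comp4288_c1). Both tests use the values that chose these components, so their p-values are no separate support. comp25839_c0 and comp4288_c1, empty in ganglion 2, passed the filter through ganglion 10 alone. comp1820_c1, the fourth, had no count in ganglion 2 or library 11, and 14.7 to 59.6 CPM elsewhere in ganglion 10. Its counts were 426 in library 2 and 213 in libraries 5, 8, 10 and 12, multiples of a single step, so they do not count separate reads. comp22986_c0, also empty in ganglion 2 and with doubled sums from 2 identical contigs, had 156 and 178 CPM in libraries 2 and 5, 0 in library 8 and up to 6.81 CPM in the others (adjusted p = 0.276).

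The lower components with the widest margin over runs were of low abundance in most ganglion 10 libraries. comp27941_c0 had 65.6, 11.3 and 3.31 CPM in libraries 1, 4 and 7 and 0 to 1.79 CPM in ganglion 10 (median 0.596), with log2 ratios of -5.49, -4.83 and -4.10 in the 3 runs. comp50432_c0 had 33.3, 8.2 and 5.2 CPM against 0.275 to 2.22 CPM (median 1.2). comp48458_c0 had 11.7, 7.29 and 10.2 CPM against 0.14 to 4.78 CPM (median 1.41). In these 3 every ganglion 2 library lay above every ganglion 10 library, as in 172 of all tested components (0.649%). The choice by runs and lanes favours this separation, so the share does not tell how rare it is among components chosen this way. For comp48458_c0 the separation depends on the TMM scaling. Library 1 held 57 of its counts among 12679031 in all, and library 10 held 54 among 8368367. The level of comp48458_c0 varied little within ganglion 2, at 9.72 ± 2.25 CPM (SD, n = 3), and library 1 held 40.2% of the summed ganglion 2 CPM. Its log2 fold change was -2.28 with all libraries (SE 1.16, edgeR adjusted p = 0.48) and -2.09 without library 1 (SE 1.20, adjusted p = 0.774). comp2898_c1 had 359, 38.7 and 7.91 CPM in libraries 1, 4 and 7 and 28.3 CPM in library 2, which lay within the range of ganglion 2. Library 12 held 6.72 CPM, close to library 7, and libraries 5, 8, 10 and 11 held none. By counts, library 12 held 97 of 12945477 in all and library 7 held 105 of 13429074.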

How the data were processed

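Libraries 1 to 9 hold whole-number counts per contig and libraries 10 to 12 hold expected counts, both as deposited; FastQC, RSEM, TopHat and Cufflinks appear in the submitters' processing notes, without versions or roles, and no source used here gives the assembler. Columns were matched to libraries by the number that opens each title. Counts were summed per component (the identifier without its sequence number) and rounded. The filter filterByExpr of edgeR 4.0.16 (minimum count 10, on the 9 libraries) kept 26511 components and removed 32082, and the same components were used without library 1. After TMM scaling, the quasi-likelihood fit used the ganglion as its only factor; the common biological coefficient of variation was 1.11, and 0.96 without library 1. Benjamini-Hochberg adjustment was over all components tested. Standard errors were derived from the F statistic.

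The 9 libraries of these ganglia were fitted alone so that the spread of ganglion 19 libraries did not enter. Log2 levels for distances, runs and lanes used a prior count of 2. Pooled folds carry exact binomial 95% intervals, and folds against an empty group use 3 counts over the group; both cover counting error only. In components at 0 to 3 counts in a group, the size of the fitted log2 fold change depends on the prior count. Of the tested components, 15.2% contain contigs with identical values in all libraries, which a sum counts more than once. Libraries of 1 ganglion differed by a chi-square per degree of freedom of at least 45.1, so none was treated as 1 library deposited more than once; this does not show that they came from different leeches.

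The members, named components and tests were chosen with earlier results of these data known. Named components are those called by edgeR with and without library 1 (none), the 6 of smallest p per direction without library 1 and without overlap, the 4 lower ones with over 90% of ganglion 2 CPM in library 1 and the 2 higher ones of smallest p that overlap, the 5 most abundant, and the 4 per direction with the widest margin over runs. Alternatives were DESeq2 1.42.0, limma 3.58.1, other scalings, filters, prior counts and distances, a lane term, runs as blocks, whole-number libraries alone, contigs, and leaving out libraries. R 4.3.3 and Python 3.11.15 were used.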

Additional observations from a re-analysis of the deposited data

Results flagged for a closer look

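Within ganglion 10, 1 library lay apart from the other 5 by Dixon's 95% criterion in 5 of 32 values checked. Chance gives about 1 in 20 for values not chosen by their size, which these components were, so the count is not read against it. In 4 of the 5 it was library 2: comp2128_c1 at 254 CPM, comp10126_c0 at 412 CPM, comp2898_c1 at 28.3 CPM and comp1820_c1 at 59.6 CPM, the last counted in steps of 213. Library 5 stood out for comp4390_c0, at 5.48 CPM. In each case that library was the highest of the 6.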

How the results depend on the processing

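The count of components called, 0 with and without library 1, held under 18 of 21 and 16 of 21 alternatives. With all 9 libraries DESeq2 called 641 (490 higher, 151 lower) and edgeR called 234 without a filter (2 higher, 232 lower). With runs of library numbers as blocks edgeR called 35 with library 1 (30 higher, 5 lower) and 36 without it (27 higher, 9 lower), from 6 and 4 libraries. With library 1 these calls included comp10126_c0, comp25839_c0 and comp4288_c1, chosen for their margin over the runs (adjusted p = 6.09e-07, 7.93e-06 and 3.56e-06; over all alternatives up to 0.981). The runs are not labelled as pairs, and deviations from the ganglion means correlated at 0.213, 0.0612 and 0.327 within runs 1 and 2, 4 and 5, and 7 and 8. Each was the highest value of its ganglion 2 library, but library 5 correlated more with library 1 (0.0971) than with library 4. Without library 1 DESeq2 called 255 and limma-voom 1, and edgeR called 4 when libraries 2 and 5 were also left out, an alternative chosen after seeing the data. Counting identical contigs once, also chosen after seeing the data, left both counts at 0. Leaving out each library in turn gave 0 to 0 calls with all 9 libraries and 0 to 1 without library 1. The log2 fold change of 3 abundant components reversed without library 1: with a library left out it ran from -2.18 to 0.42 in comp9_c0, from -2.04 to 0.25 in comp6_c0 and from -2.37 to 0.80 in comp4_c0, and limma-voom gave comp4_c0 0.00075.

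Judged by unadjusted exact p, the share of variation between ganglia lost the threshold in 2 classes with all libraries. Under 1 CPM it was 16.1% with a prior count of 5, 11% by Spearman distance, 17% with upper quartile scaling and 24.3% in whole-number libraries. From 1 to 10 CPM it was 17.3% with a prior count of 5, 13.7% by Spearman distance and 22.9% in whole-number libraries. Leaving out a library gave 15.6% to 20.1% under 1 CPM and 16.6% to 25.9% from 1 to 10 CPM. The excess of detected components in ganglion 10 kept its direction and lost the threshold at 10 counts (5387 with library 1, 2407 without) and in whole-number libraries (10494 and 5456), and ran from 5089 to 13084 and from 4212 to 5965 with a library left out. Fewer libraries allow fewer regroupings, which by itself raises the smallest p. The cause of the other changes was not tested. The design has 2 to 3 libraries of ganglion 2, and components below 10 CPM have few counts.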
